A study of Mus musculus with 6 samples.

Results

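The 32 cholesterol and fatty acid synthesis genes described here comprise the SREBP transcription factors and their regulators, the enzymes of sterol synthesis, a sterol carrier, and the enzymes that build and desaturate fatty acids. They were taken by gene symbol from the deposited table in which all 6 columns carry a library title, and 31 of the 32 symbols occurred among its 39174 genes. The other one, Msmo1, has no row under that symbol. The row with its gene identifier is named Sc4mol, an older symbol, and its values are given separately. The cells were MLO-Y4, a mouse osteocyte-like line established from long bone of a transgenic mouse that expressed the SV40 large T antigen under the osteocalcin promoter. In the flow group, 3 cultures received 2 h of oscillating fluid flow at 10 dyn/cm² in parallel-plate chambers and were harvested 2 h later, after incubation in fresh medium. The control group was 3 sham-treated cultures without flow, collected alongside. Cells of both groups grew on collagen-coated glass in medium with calf and foetal bovine serum, so both had an outside source of lipid. Replicates were collected on separate days, and the p-values below measure the spread between cultures of 1 cell line. Any differences between days are part of that spread in the main fit, which has no term for day.

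SREBPs are membrane-bound transcription factors that switch on lipid synthesis. SCAP escorts them from the endoplasmic reticulum to the Golgi, where proteases release the active part, and INSIG proteins hold SCAP back when sterols are plentiful. SREBP2, encoded by Srebf2, mainly drives cholesterol synthesis, and SREBP1, encoded by Srebf1, mainly drives fatty acid synthesis. Insig1 is itself an SREBP target, as are most of the enzymes here.

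All values are FPKM, read density per unit of transcript length and library size, as deposited. A difference is the flow mean less the control mean of log2(FPKM + 1), tested with limma over the 11957 genes that had a mean of at least 1 FPKM, with Benjamini-Hochberg adjustment. All 31 genes passed that filter. Depth read from the steps of low FPKM values was 17920000 to 19030000 reads in the controls. It was 11030000, 5760000 and 19250000 in flow libraries 1 to 3. Flow libraries 1 and 2 also differed from the rest by base composition. In protein-coding genes with a GC content of at least 55%, the median difference from the control mean was -0.29 in flow library 1, -0.32 in flow library 2 and -0.00 in flow library 3. In genes under 45% GC it was 0.25, 0.29 and -0.01. Results for GC-rich genes are therefore given also after removal of this trend. Of 13 osteocyte and osteoblast markers, 9 had a mean of at least 1 FPKM, while Dmp1 had at most 0.0354 FPKM and Sost, Mepe and Fgf23 were listed at 0 in all libraries. The 6 adipocyte markers summed to 4.46 to 4.91 FPKM in controls and 4.29 to 4.90 in flow, nearly all of it Fabp4. The 4 endothelial markers summed to at most 0.152 FPKM in any library. Of 5 macrophage and osteoclast markers in the table, Ctsk made up nearly all of a sum of 196 to 219.1 FPKM in controls and 167.2 to 208.6 in flow.

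To show what kind of promoter these genes have, the 250 bases before the transcription start of 4 of them are printed here from RefSeq (GRCm38.p6, the same assembly as mm10). They are the gene of the enzyme that makes HMG-CoA (Hmgcs1), the gene of the SCAP retention factor INSIG1 (Insig1), the fatty acid synthase gene (Fasn) and Srebf1. Windows were at hand for 25 of the 32 genes, and not for Fdps, Fdft1, Sqle, Stard4, Scd1, Scd2 or Fads1. Capitals mark 4 motifs searched on both strands: a sterol regulatory element (TCACNCCAC), the CCAAT box (CCAAT), the E-box (CACGTG) and the GC box (GGGCGG).
Hmgcs1 (chr13:119690101-119690350, + strand): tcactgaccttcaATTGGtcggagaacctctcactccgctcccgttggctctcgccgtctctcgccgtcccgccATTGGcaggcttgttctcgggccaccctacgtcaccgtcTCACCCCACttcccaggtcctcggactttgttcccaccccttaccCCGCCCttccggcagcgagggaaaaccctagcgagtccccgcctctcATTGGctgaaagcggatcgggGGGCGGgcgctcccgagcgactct
Insig1 (chr5:28071162-28071411, + strand): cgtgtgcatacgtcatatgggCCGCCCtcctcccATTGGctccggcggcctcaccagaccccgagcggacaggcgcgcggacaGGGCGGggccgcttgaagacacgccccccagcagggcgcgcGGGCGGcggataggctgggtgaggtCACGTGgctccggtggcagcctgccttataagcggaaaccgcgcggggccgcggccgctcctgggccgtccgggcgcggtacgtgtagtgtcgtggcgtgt
Fasn (chr11:120824548-120824797, - strand): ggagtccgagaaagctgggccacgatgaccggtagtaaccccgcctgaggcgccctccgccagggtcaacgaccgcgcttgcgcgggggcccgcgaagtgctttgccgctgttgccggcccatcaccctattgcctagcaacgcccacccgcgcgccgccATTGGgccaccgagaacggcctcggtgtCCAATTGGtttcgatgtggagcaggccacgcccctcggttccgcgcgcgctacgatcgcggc
Srebf1 (chr11:60220628-60220877, - strand): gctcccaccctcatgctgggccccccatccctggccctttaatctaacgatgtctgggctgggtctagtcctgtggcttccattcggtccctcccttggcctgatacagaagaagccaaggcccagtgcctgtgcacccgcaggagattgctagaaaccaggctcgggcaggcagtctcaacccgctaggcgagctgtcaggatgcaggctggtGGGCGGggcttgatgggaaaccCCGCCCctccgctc
The Hmgcs1 window held 1 match to the sterol element, 137 bases before the start, with 3 CCAAT boxes and 2 GC boxes. Neighbouring CCAAT and GC boxes are known partners of SREBP at sterol-regulated promoters. Insig1 held 1 E-box, 1 CCAAT box and 3 GC boxes, and Fasn held 3 CCAAT boxes, 2 of which overlap. Srebf1 has 3 annotated windows. The one printed lies before its longest coding transcript and held 2 GC boxes. Over all 33 windows of the 25 genes, 63.6% held a CCAAT box, against 33.8% of 32851 windows in the table. A GC box was in 72.7% against 32.7%, and an E-box in 15.2% against 6.02%. The sterol element was in 3.03%, which is the 1 window of Hmgcs1, against 1.05%. A match is a stretch of letters and not a measured binding site.

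Most lipid synthesis genes had a difference below 0, by modest amounts, and none passed the test. In these bulk samples fewer cells that express a gene and less of its RNA per cell cannot be told apart. The difference was below 0 for 26 of 31 genes, against 51.7% of all genes tested. The median was -0.30, beside a median of -0.01 over all genes tested. Limma called 0 of the 31 at an adjusted p under 0.05 (smallest adjusted p = 0.559), where 0.0167% of all genes were called. Without adjustment 3 genes had p under 0.05, all lower in flow (Srebf1, Scd2 and Fads2), or 3 of 31 against 4.82% of all genes. No gene had it in the higher direction, against 3.70%. In the same 3 genes all 3 flow values lay below all 3 controls, against 8.00% of all genes. In none did all 3 lie above, against 7.12%. With adjacent library titles fitted as a replicate block, 10 of the 31 had an unadjusted p under 0.05, all lower, against 6.6% of all genes, and limma called none (smallest adjusted p = 0.349). Removal of the GC trend in protein-coding genes brought the median to -0.18, with 28 of 31 below 0. Without flow library 2 the median was -0.13, and without non-flow control 3 it was -0.15. With flow library 3 as the only flow library, set against all 3 controls, it was 0.05.

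**Figure D1:**
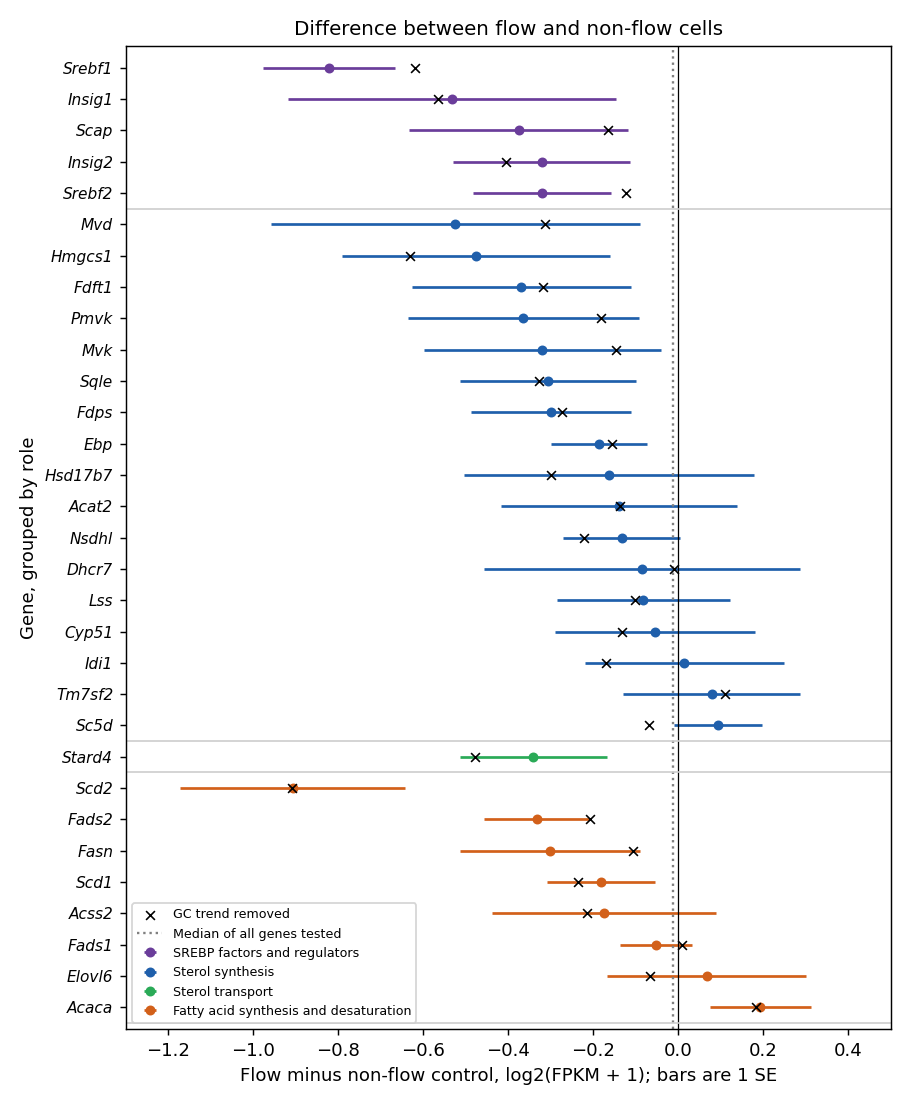
Difference in log2(FPKM + 1), flow less control, for the 31 genes, with bars of 1 SE, coloured by role; crosses are the values after removal of the GC trend, and the dotted line is the median of all 11957 genes. Srebf1 (-0.82) and Scd2 (-0.91) stand farthest below 0, and Acaca (0.19) is the highest.

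Among the SREBP factors and their regulators, all 5 had a difference below 0, from -0.32 to -0.82, against 51.7% of all genes. In each of the 5, flow libraries 1 and 2 lay below all 3 controls, against 22.8% of all genes. In flow library 3 only Srebf1 did so, against 25.5%. Srebf1, Srebf2 and Scap have a GC content of at least 55%, the class that was lower in flow libraries 1 and 2. With the GC trend removed all 5 genes still had a difference below 0, with a median of -0.40.

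Srebf1 (ENSMUSG00000020538; chromosome 11, 60199089 to 60222581, mm10) had the smallest p of all 31 genes. Its level was 80.8, 89.0 and 86.6 FPKM in non-flow controls 1 to 3 and 41.3, 44.0 and 60.4 FPKM in flow libraries 1 to 3. The groups did not overlap, and even the highest flow library was well under the lowest control. The group means were 85.5 ± 4.19 and 48.6 ± 10.3 FPKM (SD, n = 3), a difference of -0.82 with SE 0.16 (limma, adjusted p = 0.559). Srebf1 is GC-rich, at 58.4%, and after removal of the GC trend its difference was -0.62. Without flow library 3 it was -0.99 (adjusted p = 0.0534). The 1a and 1c forms of SREBP1 arise from different first exons of this gene and were not separated in these gene-level values. Its neighbour Rai1 holds 1.4% of the 50-base stretches of its longest transcript.

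Srebf2 (45.6 ± 4.63 and 36.7 ± 7.496 FPKM) encodes the factor that mainly serves cholesterol synthesis. The controls had 49.2, 40.4 and 47.3 FPKM, and the flow libraries 31.9, 32.9 and 45.3. Flow library 3 lay among the controls, and the other two flow libraries lay below them. The difference was -0.32 with SE 0.16, and it was -0.12 after removal of the GC trend (57.9% GC).

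Scap, the escort of SREBPs, had 46.9, 44.2 and 44.2 FPKM in controls against 31.6, 24.9 and 52.2 in flow. The flow values straddled the controls, which were tight. Its difference of -0.38 (SE 0.26) became -0.16 with the GC trend removed (59.1% GC). Without flow library 2 it was -0.15, and without flow library 3 it was -0.67. Of the 50-base stretches of the longest Scap transcript, 13.1% occur in another gene, 5830462I19Rik.

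Insig1, the retention factor that is itself induced by SREBP, had 16.1, 12.4 and 25.9 FPKM in controls. In flow it had 10.3, 7.72 and 19.6 FPKM. Non-flow control 3 and flow library 3 were the highest of their groups, and the groups overlapped. The difference was -0.53 with SE 0.39, and -0.56 with the GC trend removed (48.2% GC). Without non-flow control 3 or flow library 2 it was -0.26, and without flow library 3 it was -0.88. Between adjacent titles, which the labels do not state as pairs, Insig1 was lower in flow each time. With these titles as a replicate block the unadjusted limma p was 0.00506 (adjusted p = 0.423).

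Insig2, the related retention factor that does not depend on SREBP in the same way, had 50.0, 39.8 and 47.4 FPKM in controls against 37.0, 27.3 and 47.1 in flow (difference -0.32, SE 0.21). In the other deposited table, which is shallower, the difference had the opposite sign, at 0.21. Without flow library 2 it was -0.12, and without flow library 3 it was -0.51.

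**Figure D2:**
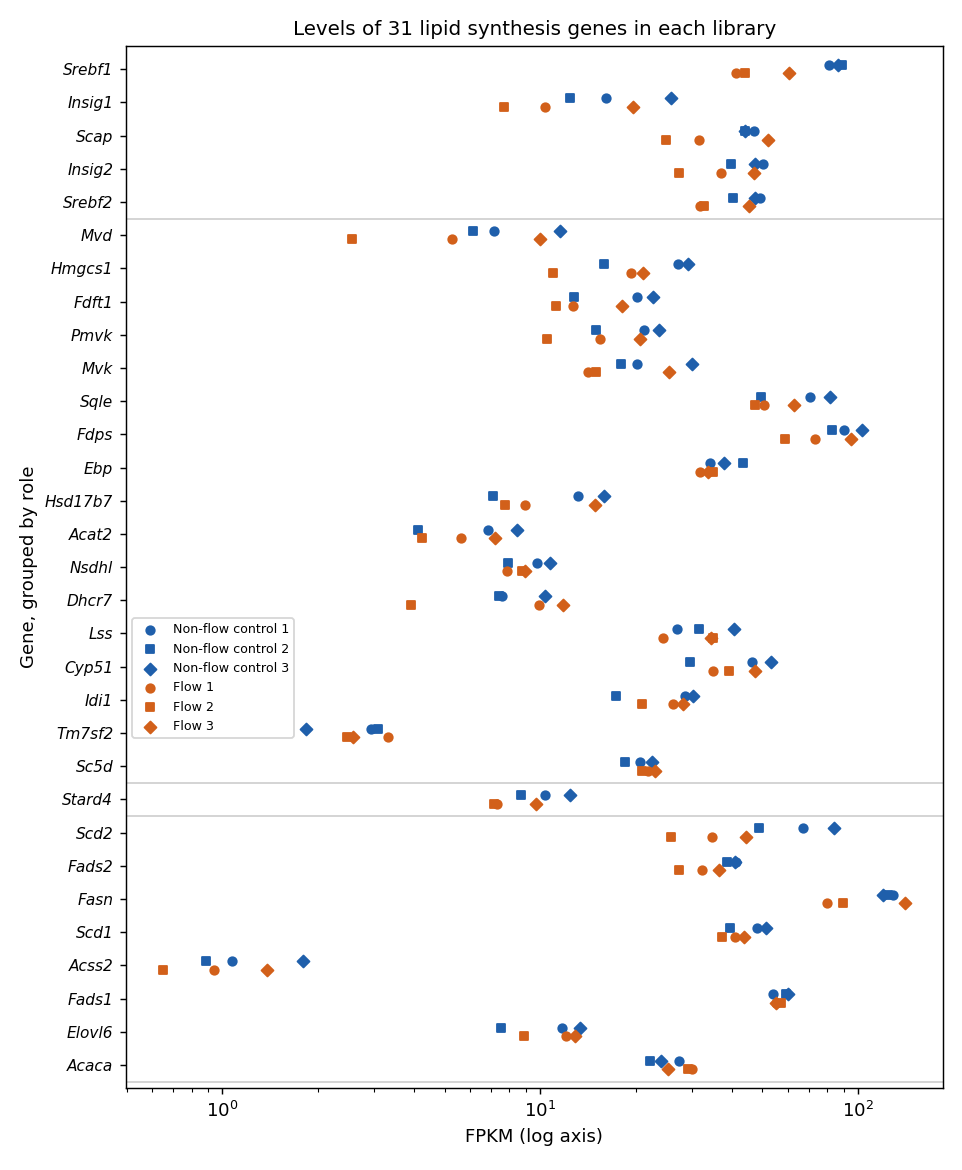
FPKM on a log axis for the 31 genes in each library, with 3 non-flow controls in blue and 3 flow libraries in orange; marker shapes stand for replicates 1 to 3. Srebf1, Scd2 and Fads2 are the genes in which all orange points lie to the left of all blue points.

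Of the 17 sterol synthesis enzymes found in the table, 14 had a difference below 0, against 51.7% of all genes. Their median was -0.16, and none had an unadjusted p under 0.05. The median was -0.17 with the GC trend removed, with 16 of 17 below 0. In controls their levels ran from 2.61 FPKM for Tm7sf2, a sterol reductase, to 92.1 FPKM for Fdps, the farnesyl diphosphate synthase. The differences ran from -0.52 for Mvd to 0.09 for Sc5d.

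Hmgcs1 makes HMG-CoA, the entry to the mevalonate pathway. It had 27.2, 15.9 and 29.2 FPKM in controls against 19.3, 10.98 and 21 in flow. Non-flow control 2 was lower than flow libraries 1 and 3, so the groups overlapped (difference -0.48, SE 0.32). With the GC trend removed it was -0.63 (43.1% GC). Omission of non-flow control 2 gave -0.74, and omission of flow library 2 gave -0.20. Between adjacent titles, which the labels do not state as pairs, Hmgcs1 was lower in flow each time. With these titles as a replicate block the unadjusted limma p was 0.00377 (adjusted p = 0.423). An antisense gene, Gm48342, shares part of its sequence: 13.6% of the 50-base stretches of its longest transcript occur in a transcript of another gene.

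Mvk and Pmvk, the kinases of mevalonate and phosphomevalonate, had differences of -0.32 (SE 0.28) and -0.36 (SE 0.27). Mvd, the decarboxylase that follows, had -0.52 (SE 0.44), from 8.28 ± 2.88 FPKM in controls and 5.93 ± 3.74 in flow. Without flow library 2 the Mvd difference was -0.12, and without flow library 3 it was -0.93. Mvk, Pmvk and Mvd are GC-rich, at 56.3% to 59.0%, and with the GC trend removed they had -0.15, -0.18 and -0.31. Idi1, the isomerase of the pathway, had 25.3 ± 7.05 and 25.1 ± 3.73 FPKM (SD, n = 3) and a difference of 0.02 (SE 0.23). Part of its sequence (30.5% of 50-base stretches) is shared with other genes, among them Gm13502, so its level is uncertain.

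Fdps joins isoprene units into farnesyl diphosphate, the branch point to sterols and to protein prenylation. Its level was 90.3, 83.0 and 103.0 FPKM in controls and 73.3, 59.0 and 95.1 FPKM in flow. Flow libraries 1 and 2 lay below all controls and flow library 3 among them (difference -0.30, SE 0.19). Omitting flow library 2 gave -0.13 and omitting flow library 3 gave -0.47. Gene models such as Gm3571 share 11.7% of its 50-base stretches.

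Fdft1, squalene synthase, is the first enzyme committed to sterols. It had 20.2, 12.7 and 22.6 FPKM in controls against 12.7, 11.2 and 18.0 in flow, with overlap (-0.37, SE 0.26). Its longest transcript shares 30.7% of its 50-base stretches with other genes, chiefly the convergent neighbour Ctsb. Sqle, squalene epoxidase, had 70.5, 49.5 and 81.5 FPKM in controls against 50.4, 47.2 and 62.7 in flow (-0.31, SE 0.21). In both genes non-flow control 2 was close to flow libraries 1 and 2. When 1 library was left out, Fdft1 ranged from -0.60 (without non-flow control 2) to -0.21 (without non-flow control 3), with -0.56 without flow library 3 and -0.24 without flow library 2. Sqle ranged from -0.51 to -0.15 on leaving out the same 2 controls.

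Lss, which closes the sterol ring, had a difference of -0.08 (SE 0.20), and Cyp51, the lanosterol demethylase, had -0.05 (SE 0.24). Nsdhl, Hsd17b7 and Dhcr7, which act in demethylation and in later reduction steps, had -0.13, -0.16 and -0.09 with SE of 0.14, 0.34 and 0.37. Ebp, a sterol isomerase, had 34.1, 43.3 and 37.7 FPKM in controls against 31.8, 35.0 and 33.6 in flow. Its flow values were close together, and flow libraries 1 and 3 lay below all controls (-0.19, SE 0.11, or -0.10 without non-flow control 2). Sc5d, the sterol desaturase, and Tm7sf2 had positive differences of 0.09 (SE 0.10) and 0.08 (SE 0.21). Acat2, a cytosolic thiolase, had -0.14 (SE 0.28). In Acat2 45.9% of 50-base stretches occur in other genes, chiefly its paralog Acat3. Msmo1, the methylsterol oxidase listed as Sc4mol, had 54.1, 47.8 and 81.1 FPKM in controls against 27.2, 37.6 and 62.1 in flow, a difference of -0.56 (SE 0.33, limma, adjusted p = 0.575). It is not included in the counts of the 31 genes.

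Stard4 encodes a soluble carrier that moves cholesterol between membranes. It had 10.3, 8.68 and 12.4 FPKM in controls against 7.29, 7.14 and 9.69 in flow. Flow libraries 1 and 2 lay below all controls, and flow library 3 lay among them. The difference was -0.34 with SE 0.17, -0.48 with the GC trend removed (43.9% GC) and -0.22 without non-flow control 3.

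Among the 8 fatty acid genes the median difference was -0.18, with 6 below 0, against 51.7% of all genes. The desaturase genes Scd2 and Fads2 had all flow values below all controls, as did 8.00% of all genes. The other desaturases, Scd1 and Fads1, did overlap. Fasn was the most abundant of all 31 genes, at 123.9 ± 4.49 FPKM in controls. Acss2, a nuclear and cytosolic acetyl-CoA synthetase, was the least abundant, at 1.251 ± 0.478 FPKM.

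Scd2 (ENSMUSG00000025203; chromosome 19, 44293674 to 44306864) is a stearoyl-CoA desaturase, which puts the double bond into newly made saturated fatty acids. Its level was 66.9, 48.6 and 84.2 FPKM in controls against 34.8, 25.8 and 44.5 in flow. All flow values lay below all controls. Flow library 3 was the highest flow library, and non-flow control 3 was likewise the highest control. The means were 66.6 ± 17.8 and 35.0 ± 9.36 FPKM (SD, n = 3), the largest difference of the 31 genes at -0.91 with SE 0.26 (limma, adjusted p = 0.559). It was -0.91 with the GC trend removed (49.5% GC) and -0.87 in the other deposited table. Leaving out any 1 library gave -0.71 to -1.11.

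Scd1 lies in the same region of chromosome 19 as Scd2 (44394455 to 44407879) and encodes the isozyme best known from liver and fat. It had 48.2, 39.6 and 51.4 FPKM in controls against 41.0, 37.3 and 43.6 in flow, with overlap (-0.18, SE 0.13). Omission of non-flow control 2 gave -0.29, and omission of non-flow control 3 gave -0.10. Of the 50-base stretches of the longest transcripts, 4.7% in Scd1 and 4.0% in Scd2 occur in other genes, chiefly of this family. The other family members, Scd3 and Scd4, had at most 0.0512 and 0.216 FPKM in any library.

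Fads2, the delta-6 desaturase of polyunsaturated fatty acid synthesis, had 41.2, 38.7 and 41.0 FPKM in controls against 32.2, 27.2 and 36.6 in flow. The groups did not overlap, though flow library 3 came near the lowest control. Its difference was -0.33 (SE 0.12, limma, adjusted p = 0.559), and it was -0.21 with the GC trend removed (54.4% GC). In the other deposited table it was -0.12, and the groups overlapped there. Fads1, the delta-5 desaturase in the same gene cluster, had 57.9 ± 3.36 and 55.8 ± 1.22 FPKM (-0.05, SE 0.08).

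Fasn, the multienzyme that assembles palmitate, had 128.5, 123.7 and 119.5 FPKM in controls against 80.0, 89.4 and 140.8 in flow. Flow libraries 1 and 2 lay below the controls and flow library 3 above them. The difference of -0.30 (SE 0.21) became -0.11 with the GC trend removed (57.9% GC). Omission of flow library 1 gave -0.14, and omission of flow library 3 gave -0.55. Acaca makes malonyl-CoA, the substrate of Fasn. It had 27.3, 22.2 and 23.9 FPKM in controls against 29.9, 29.2 and 25.2 in flow, and was the highest difference of the 31 genes at 0.19 (SE 0.12, or 0.13 without non-flow control 2). Of the 50-base stretches of its longest transcript, 52.6% occur in the pseudogene Gm5182, so its level is uncertain. Elovl6, which elongates palmitate, had 0.07 (SE 0.23), and Acss2 had -0.17 (SE 0.26).

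The balance within 2 pairs of related genes was computed in each library. The pairs were chosen after their values were seen. The ratio of Scd2 to Scd1 was 1.39, 1.23 and 1.64 in controls and 0.847, 0.691 and 1.02 in flow. Every flow library was below every control, with means of 1.42 ± 0.207 and 0.852 ± 0.164 (SD, n = 3). Scd2 was thus more abundant than Scd1 in each control and not in flow libraries 1 and 2. The ratio of Srebf1 to Srebf2 was 1.64, 2.2 and 1.83 in controls and 1.3, 1.34 and 1.33 in flow, again with no overlap. In a two-sided exact permutation test each ratio had p = 0.1, the smallest that 3 against 3 can give (adjusted p = 0.1 over both). The pairs were picked from these data, and Scd2 and Srebf1 each already had no overlap, so these p-values cannot serve as support.

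**Figure D3:**
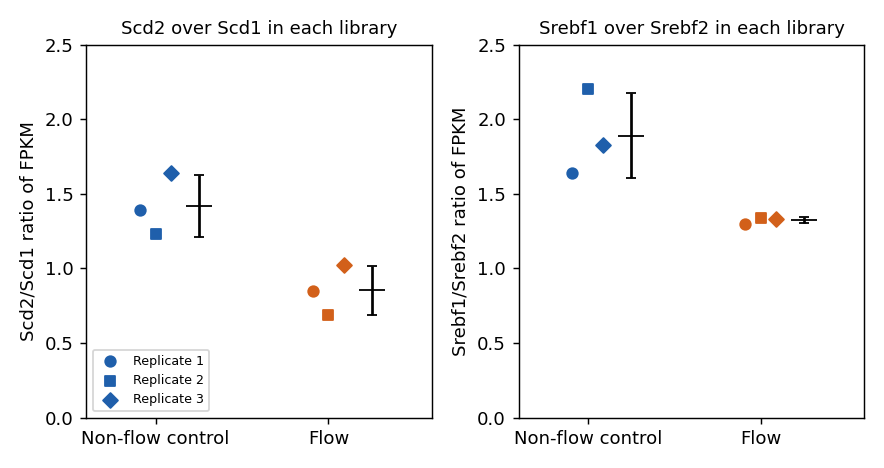
Ratio of FPKM of Scd2 to Scd1 (left) and of Srebf1 to Srebf2 (right) in each library, with replicates 1 to 3 as circle, square and diamond, and the mean with SD in black. The highest flow ratio, 1.02 for Scd2 over Scd1 and 1.34 for Srebf1 over Srebf2, lies below the lowest control ratio in each panel.

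The genes also varied together between cultures of the same group. Among the 17 sterol synthesis enzymes, non-flow control 3 was the highest control for 15 and flow library 3 the highest flow library for 14. Both held at once for 14 of 17, against 15.8% of all genes tested. Non-flow control 2 was the lowest control for 14 and flow library 2 the lowest flow library for 12, and both held for 11, against 15.5% of all genes. The median deviation of these enzymes from their own mean over the 6 libraries was 0.13, -0.18 and 0.37 in controls 1 to 3. It was -0.17, -0.38 and 0.19 in flow libraries 1 to 3. Adjacent library titles (non-flow control 1 with flow library 1, and likewise for 2 and 3) may mark a shared day, which the labels do not state. Within these pairs the flow library was the lower one all 3 times for 17 of the 31 genes, against 20.3% of all genes. The SREBP factors and regulators had a median deviation of 0.27, -0.01 and 0.22 in controls and -0.34, -0.56 and 0.21 in flow.

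**Figure D4:**
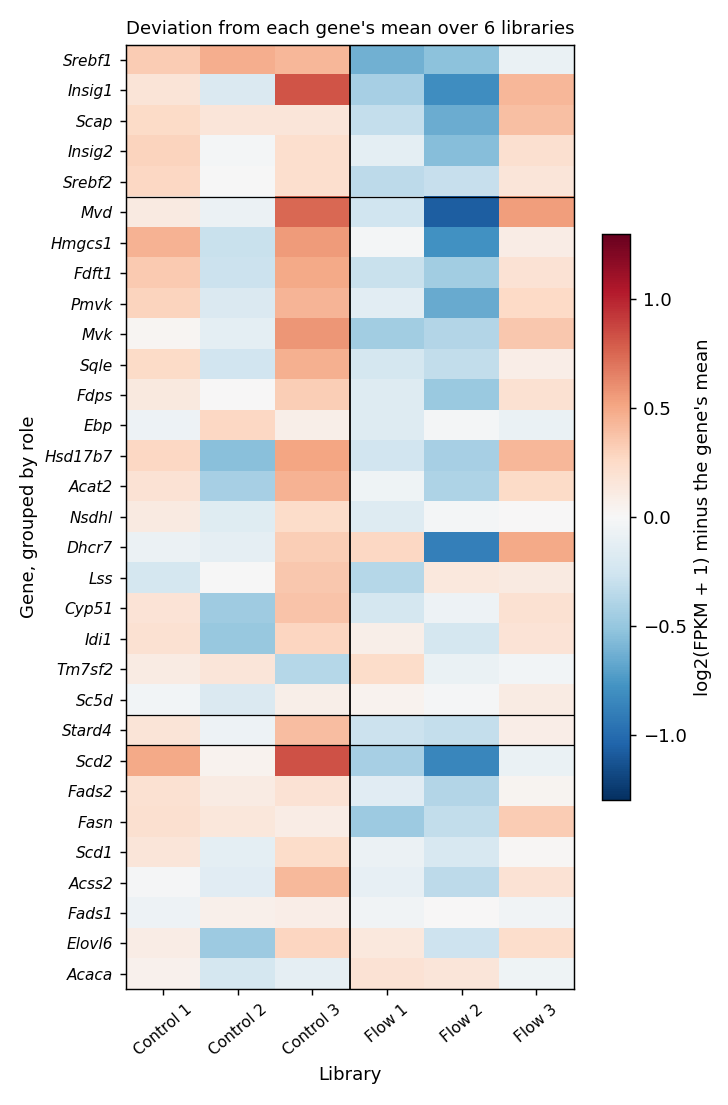
Heat map of log2(FPKM + 1) minus each gene's mean over the 6 libraries, for 31 genes in rows and 6 libraries in columns. Control 3 and flow 3 are red for most sterol synthesis enzymes (14 of 17 highest in both), and flow 2 is blue for most.

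The 3 flow libraries did not depart from the controls alike. Flow library 1 was below all 3 controls in 16 of 31 genes, against 33.5% of all genes, and flow library 2 in 19, against 35.8%. Flow library 3 was below all controls in 4 of 31 genes, against 25.5% of all genes. It was above them in 4, a count for which the share of all genes was not computed. Flow libraries 1 and 2 were both below all controls in 13 genes, against 22.8% of all genes. These are the shallowest libraries and the ones with the GC trend described above, and the part of depth in the results was not tested. In 10 of these 13 genes flow library 3 was not below the controls. Without flow library 3, 9 of the 31 had an unadjusted p under 0.05, all lower in flow, but the share of all genes also rose, to 13.1%. Limma called none of the 31 there (smallest adjusted p = 0.0534). Among the 13, the 3 in which flow library 3 was low as well were Srebf1, Scd2 and Fads2.

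A list of 62 other genes of the pathway excluded the 31. Of these 59 occurred by symbol and 46 were tested. None was called by limma, 32 had a difference below 0, against 51.7% of all genes, and the median was -0.06. The 9 tested genes of SREBP processing and turnover had a median of -0.01, and the 6 other isoprenoid and sterol enzymes -0.04. The 10 genes of the liver X receptor system and of sterol storage and traffic had -0.13. The 16 other fatty acid genes had -0.06 and the 5 glycerolipid genes -0.11. Without adjustment 3 of the 46 had p under 0.05, all lower in flow, against 4.82% of all genes. In 5 all flow values lay below all controls, against 8.00%, and in 2 (Elovl7 and Osbp) all lay above, against 7.12%. The shares by unadjusted p and by overlap are near those over all genes.

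Slc25a1 exports citrate from mitochondria and so supplies the carbon of fatty acids and sterols. It had 98.7, 92.6 and 95.8 FPKM in controls against 69.1, 67.5 and 83.8 in flow, with no overlap. Its difference was -0.38 (SE 0.11, limma, adjusted p = 0.559), and -0.17 with the GC trend removed. Acly, which turns that citrate into acetyl-CoA, had 115.2, 95.1 and 112.9 FPKM in controls against 88.4, 86.5 and 100.7 in flow (-0.23, SE 0.11). Stard3, a sterol carrier of late endosomes, had 24.5, 24.6 and 24.6 FPKM in controls against 16.3, 13.3 and 21.3 in flow. All flow values were below controls (-0.53, SE 0.17, or -0.37 with the GC trend removed).

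Tecr, the last reductase of very long chain fatty acid elongation, had 96.2, 108.1 and 107.3 FPKM in controls against 76.4, 83.8 and 93.7 in flow. Its groups did not overlap (-0.30, SE 0.11, or -0.11 with the GC trend removed). Elovl7, an elongase, was low and ran the other way, with 1.26, 1.16 and 1.2 FPKM in controls against 2.16, 2.12 and 1.40 in flow (0.38, SE 0.20). Abca1 and Abcg1, sterol exporters that the liver X receptors induce, had at most 0.0277 and 0.0154 FPKM in any library.

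**Figure D5:**
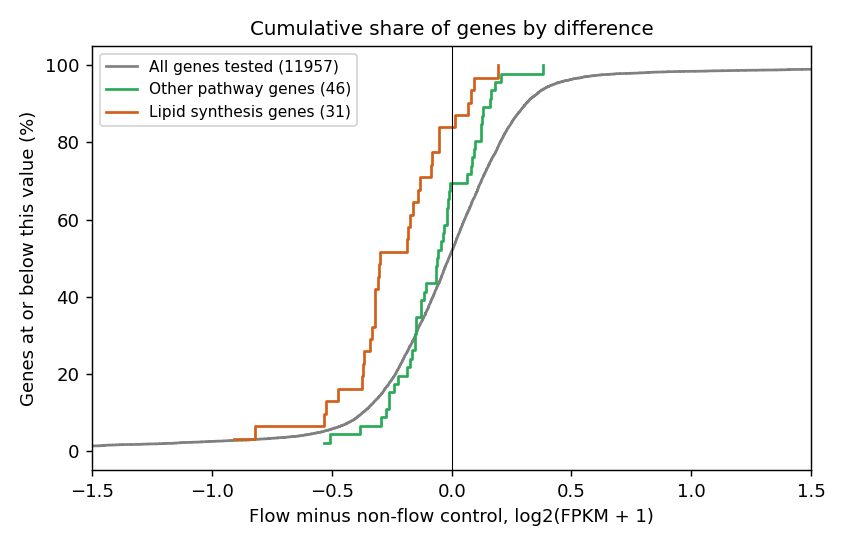
Cumulative share of genes (vertical axis, %) at or below a given difference between flow and non-flow control (horizontal axis, log2(FPKM + 1)), for all 11957 genes in grey, the 46 other pathway genes in green and the 31 lipid synthesis genes in orange. The orange curve lies left of the others over most of the range, with a median of -0.30 against -0.06 and -0.01.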

How the data were processed

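RNA was sequenced from 3 flow and 3 non-flow control cultures of MLO-Y4 cells. Per the labels' protocols, barcoded libraries were read single-end for 50 cycles on an Illumina sequencer. Cufflinks 2.2.1, TopHat2 2.0.9 and CASAVA 1.8.2 appear in the submitters' processing notes, as does build mm10. Sources used here do not state the annotation, strand setting or any scaling between libraries, so reads of a gene and its antisense partner cannot be told apart.

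The values are FPKM that the authors deposited in 2 tables, with 1 column per library and no counts. The table with all 6 library titles was tested. The other, where 2 flow columns match no title and 22 rows repeat an identifier (of which the one of higher mean was used), served as an alternative. Depth was estimated from FPKM multiplied by transcript length less 200 nt, in genes with 1 transcript. A rescaling of libraries by the authors would bias this estimate.

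Tests used limma 3.58.1 under R 4.3.3 on log2(FPKM + 1), in genes whose mean reached 1 FPKM (eBayes with trend, two-sided, no covariate, Benjamini-Hochberg, threshold 0.05), a scale that understates changes of low genes. The code was tested on simulated data. The GC alternative subtracted a lowess curve (span 0.3) of each library's values on the GC content of the longest GENCODE M21 transcript. Shared sequence is the share of 50-base stretches of that transcript found in another gene's transcripts, on either strand. The genes and lists were chosen with earlier results of these data known. Values in every library are given for the 14 tested genes with the smallest p, for genes without overlap and for 10 genes always named, and for the 6 other pathway genes with the smallest p, of which 1 is not reported here. Msmo1, Osbp, Scd3, Scd4, Abca1 and Abcg1 were added after their values were seen. Alternatives covered the pseudocount, the filter, scaling, GC, the variance trend, pairing, the other table and omission of each library.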

Additional observations from a re-analysis of the deposited data

How the results depend on the processing

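No gene of the 31 was called under any of 16 alternative settings or the 2 added after the data were seen. The number of calls over all genes was 2. It was 4 with a pseudocount of 0.1 FPKM and 4 without a filter, 0 in protein-coding genes with the GC trend removed, and 3 to 14 when 1 library was left out. It was 76 with flow library 3 as the only flow library, which was then assumed to vary like the controls.

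Of the 31 genes, 3 had an unadjusted p under 0.05, all lower in flow, and 2 to 9 did when 1 library was left out, while the share of all genes went from 2.48% to 13.1%. The number with all flow values below all controls was 3, and 3 to 13 when 1 library was left out, beside 10.9% to 22.8% of all genes. In addition 1 gene had all flow values above all controls when non-flow control 1, non-flow control 3 or flow library 3 was left out. The share of all genes was not computed for that count. The median difference ranged from -0.42 to -0.13 when 1 library was left out. With flow library 3 alone it was 0.052. Then, against all 3 controls, 6 of the 16 genes given in every library had the opposite sign: Scap (0.21), Insig1 (0.17), Insig2 (0.0467), Fdps (0.052), Fdft1 (0.0031) and Fasn (0.18). The cause was not tested. Against non-flow control 3 alone, which has the adjacent title, flow library 3 was higher in Scap (52.2 against 44.2 FPKM) and Fasn (140.8 against 119.5). It was lower than that control in Insig1 (19.6 against 25.9), Insig2 (47.05 against 47.4), Fdps (95.1 against 103) and Fdft1 (18.0 against 22.6). Of the 16 genes, only Insig2 had the opposite sign in the other deposited table (0.21). Over the 30 genes tested there, 22 had a difference below 0, with a median of -0.25. In 2 of the 30 all flow values lay below all controls, against 5.91% of all genes. The depth of non-flow control 1 in that table was estimated at only 690000 reads. Addition of Msmo1 left the counts of calls as they were.

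The labels give no shared replicate numbers. Adjacent titles (3 and 4, 11 and 12, 19 and 20) may mark a shared day. Over all genes, deviations from the group means correlated at 0.02 to 0.06 (Pearson) and 0.24 to 0.30 (Spearman) between adjacent titles, and at -0.22 to -0.08 (Spearman) between other titles. Over the 31 genes Pearson's r was 0.32 to 0.55 between adjacent titles and -0.43 to -0.04 between others. The ranks thus hint at pairs, while Pearson's r over all genes stays low and the labels state none. With adjacent titles as a replicate block, 1 gene was called over all genes. Of the 31 genes 10 then had an unadjusted p under 0.05, all lower in flow, against 6.6% of all genes. None was called (smallest adjusted p = 0.349, Scd2).

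At the depth of flow library 2, 3 reads on 1 kb equal 0.521 FPKM. Acss2 (0.650 FPKM), Tm7sf2 (2.46) and Mvd (2.56) had the lowest values of the 31 genes in that library. They rest on comparatively few reads there, and only Acss2 was near that level.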
